A study of Homo sapiens with 15 samples.

Results

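The genes described here encode the proteasome and the proteins that build, activate or inhibit it. They were taken as every protein-coding gene whose symbol begins with PSMA, PSMB, PSMC, PSMD, PSME, PSMF or PSMG and whose Ensembl identifier occurs in all 15 count files. That rule found 50 genes among 60557 shared genes, and 45 of the 50 were among the 13157 genes with enough counts to be tested. The 5 untested genes were PSMA2, PSMA8, PSMB8, PSMB9 and PSMB11. PSMC3IP and PSME3IP1 carry the prefix but encode a recombination cofactor and a protein that binds an activator, and they are set apart wherever counts are given by role.

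The cells were Caco-2, an established line from a human colorectal carcinoma whose confluent monolayers resemble small-intestinal enterocytes. Monolayers received dishwasher rinse aid at 1:10000 or at 1:40000 for 24 h, unexposed monolayers served as control, and 5 libraries of polyadenylated RNA were sequenced per group. Rinse aid was thus 4 times more concentrated at 1:10000 than at 1:40000. The labels do not say whether the replicates are separate cultures, so p-values measure the spread between these samples only, which may be technical.

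The proteasome degrades proteins that carry ubiquitin chains. Its 20S core is a barrel of alpha rings, which gate the entrance, and beta rings, which hold the cutting sites, and the 19S cap consists of a base with a ring of unfolding ATPases and a lid that removes ubiquitin. Inflammatory signals can replace the cutting subunits PSMB5, PSMB6 and PSMB7 by PSMB8, PSMB9 and PSMB10, giving the immunoproteasome, and cells with too little proteasome activity can raise all subunit genes together through the transcription factor NRF1, encoded by NFE2L1.

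Total counts ran from 5489425 to 9555632 at 1:10000, from 2551839 to 172092447 at 1:40000 and from 4333226 to 14230853 in control. Per the file headers the 10 rinse aid files came from the aligner HISAT2 and the 5 control files from RNA STAR, with different annotations, so in each comparison with control the exposure, the aligner and the annotation cannot be told apart. The comparison between the dilutions shares both, and it comes first below. Levels are CPM, counts after TMM scaling to a common library size, and in these bulk samples fewer cells of a type and less RNA per cell cannot be told apart. The 6 epithelial markers summed to 11027 to 13023 CPM at 1:10000, 8644 to 9874 CPM at 1:40000 and 8667 to 10504 CPM in control. These markers did not move alike between the dilutions, as KRT8 and KRT18 were higher at 1:10000, with log2 fold changes of 0.54 and 0.78, while CDH1, VIL1 and CDX2 were lower, with -0.43, -0.31 and -1.61. The 8 leukocyte markers summed to 8.75 to 11.6 CPM at 1:10000, 16.0 to 23.6 CPM at 1:40000 and 13.9 to 21.6 CPM in control, with the defining markers PTPRC, NKG7 and MS4A1 at 0 in every library. The 6 fibroblast markers summed to 59.3 to 78.4 CPM, 104 to 134 CPM and 129 to 153 CPM in the same groups. The part of these shifts in the results was not tested.

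Between the dilutions, proteasome genes were on balance slightly higher at 1:10000 than at 1:40000. Of the 45 tested members, 19 were higher, 3 were lower and 23 did not pass (quasi-likelihood test of edgeR, adjusted p under 0.05 after Benjamini-Hochberg adjustment). The share called was 48.9%, against 57.3% of all genes tested. By direction, 28.3% of all genes were called higher and 29.0% lower. The median log2 fold change was 0.14 over the tested members and -0.01 over all tested genes. The changes were small, and 0 of the called members reached 2-fold, a size that 9.03% of all genes reached with a call. Every 1:10000 library lay above every 1:40000 library for 16 members, and below for 1, while 40.3% of all genes had groups that did not overlap. Without the deepest and the shallowest 1:40000 library, 17 members were called higher and 3 lower, and the median was 0.09.

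**Figure D1:**
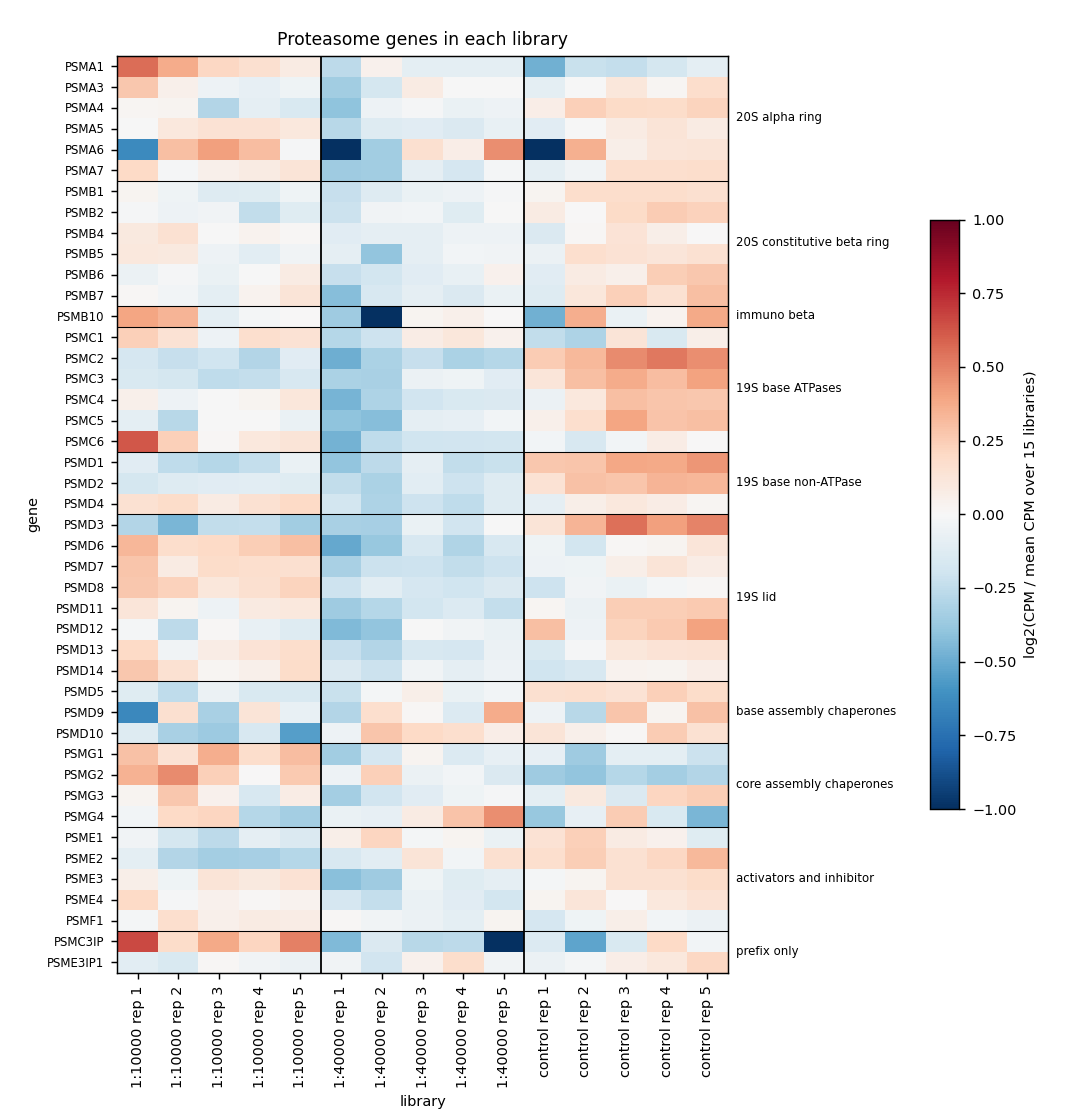
Level of 44 tested proteasome genes (rows, by role; PSMB3 left out) in each of 15 libraries (columns, 1:10000, 1:40000 and control from left to right), as log2 of CPM over the gene's mean of 15 libraries, with colours saturating at -1 and 1. Most lid genes are higher in the 1:10000 libraries than in the 1:40000 libraries, and PSMC2, PSMC3, PSMD1, PSMD2 and PSMD3 are highest in the control libraries.

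The lid had more of the higher calls than any other role. Among its 8 genes, 6 were higher at 1:10000 than at 1:40000 and 0 lower, against 28.3% and 29.0% of all genes. The median log2 fold change of the 8 was 0.29. PSMD7, a scaffold subunit that pairs with the deubiquitinase PSMD14, had 223, 194, 209, 206 and 205 CPM at 1:10000, 147, 158, 159, 155 and 159 CPM at 1:40000 and 177, 178, 191, 201 and 194 CPM in control. The dilutions did not overlap, and the control libraries lay above all 1:40000 libraries and overlapped the lower 1:10000 libraries. Its log2 fold change between the dilutions was 0.42 ± 0.06 (± SE), with an adjusted p of 7.27e-07 by edgeR.

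PSMD6, another scaffold subunit of the lid, showed the largest rise of the lid genes between the dilutions. It had 113, 101, 103, 106 and 110 CPM at 1:10000, 62.9, 69.1, 80.2, 73.0 and 80.3 CPM at 1:40000, and 87.3, 79.1, 90.5, 91.3 and 97.8 CPM in control, a log2 fold change of 0.55 ± 0.07 between the dilutions. All 1:10000 libraries lay above all others, and the 1:40000 and control ranges overlapped by a little. PSMD6 was chosen after its values were seen. PSMD8, whose yeast counterpart is the last subunit to join the lid, had 212, 207, 191, 197 and 206 CPM at 1:10000, 153, 164, 157, 154 and 159 CPM at 1:40000 and 153, 172, 168, 173 and 178 CPM in control. For PSMD8 the 1:10000 group was apart from both others, which overlapped each other.

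The remaining lid genes divided. PSMD11, PSMD13 and PSMD14 rose by log2 fold changes of 0.30, 0.29 and 0.24. PSMD12 had 0.08 ± 0.09 and PSMD3 had -0.14 ± 0.08 on the same scale, and neither passed. PSMD3 moved across the threshold in the lower direction under other settings, reaching an adjusted p of 0.0313 without the low count filter and 0.0201 without the deepest and shallowest 1:40000 libraries.

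**Figure D2:**
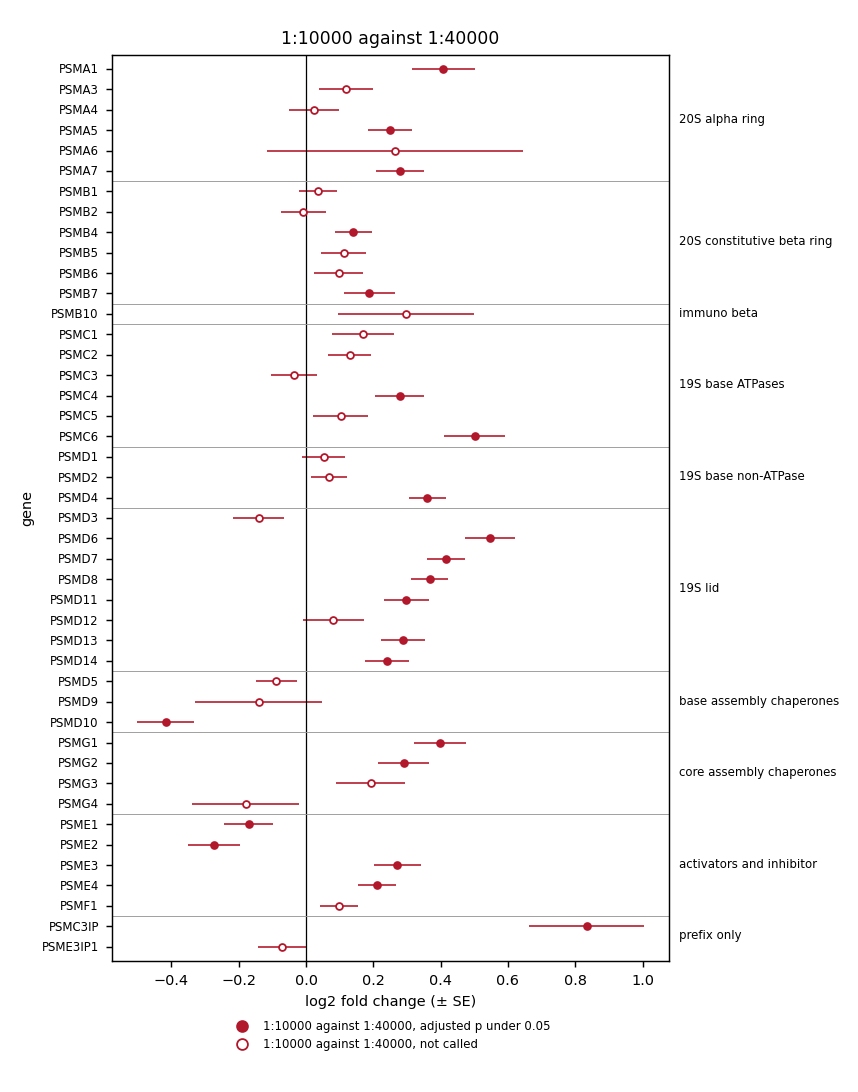
log2 fold change of 44 tested proteasome genes at 1:10000 against 1:40000 (x axis; bars are approximate standard errors), by role, with filled points for an adjusted p under 0.05. Of the lid genes 6 are filled and to the right of 0, while PSMD10, PSME1 and PSME2 are the filled points to the left.

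In the base, the ring of ATPases that unfold substrates, 2 of 6 genes were higher and 0 lower between the dilutions. The share higher, 33.3%, was near the 28.3% of all genes. PSMC6, one of these ATPases, had 168, 128, 110, 117 and 119 CPM at 1:10000, 78.8, 91.3, 94.8, 95.3 and 96.1 CPM at 1:40000 and 107, 97.8, 107, 115 and 110 CPM in control. Its 1:10000 values all exceeded those at 1:40000, with replicate 1 far above the others, and the log2 fold change was 0.50 ± 0.09 (edgeR adjusted p 5.65e-05). PSMC4 was the second called ATPase, with a log2 fold change of 0.28 ± 0.07. Of the 3 non-ATPase base genes only PSMD4, the ubiquitin receptor, was called.

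PSMD4 had 173, 177, 165, 174 and 179 CPM at 1:10000, 138, 126, 136, 131 and 143 CPM at 1:40000 and 147, 163, 168, 164 and 159 CPM in control. The dilutions were apart, the controls lay above the 1:40000 group and overlapped the 1:10000 group, and the log2 fold change between the dilutions was 0.36 ± 0.05 (edgeR adjusted p 4.71e-06). PSMD1 and PSMD2, the large scaffold subunits of the base, had log2 fold changes of 0.05 ± 0.06 and 0.07 ± 0.05 and did not pass.

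In the 20S core, 3 of 6 tested alpha genes were higher at 1:10000 than at 1:40000 and 0 lower. Of the 7 constitutive beta genes, 2 were higher and 0 lower. The shares higher were 50% and 28.6%, against 28.3% of all genes, so that of the beta genes was near all genes. The alpha genes called were PSMA1, PSMA5 and PSMA7. PSMA1 had 48.1, 42.1, 37.6, 36.5 and 34.6 CPM at 1:10000, 27.2, 33.6, 30.5, 30.5 and 30.5 CPM at 1:40000 and 23.4, 27.9, 27.7, 28.9 and 30.5 CPM in control. The 1:10000 group was higher than both others without overlap, and the 1:40000 and control groups overlapped. The log2 fold change was 0.41 ± 0.09 between the dilutions (edgeR adjusted p 0.000607).

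Of the constitutive cutting subunits, PSMB7 was called and PSMB5 and PSMB6 were not. PSMB5, which cuts after hydrophobic residues, had 143, 142, 128, 124 and 130 CPM at 1:10000, 125, 101, 125, 130 and 130 CPM at 1:40000 and 128, 149, 146, 145 and 147 CPM in control. PSMB6, which cuts after acidic residues, had 84.8, 87.5, 84.0, 87.9 and 93.1 CPM at 1:10000, 75.1, 77.5, 81.5, 83.7 and 90.6 CPM at 1:40000 and 81.3, 93.2, 91.4, 104 and 106 CPM in control. For both the 3 groups overlapped, and the log2 fold changes between the dilutions were 0.11 ± 0.07 and 0.10 ± 0.07.

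PSMB7, which cuts after basic residues, had 166, 162, 154, 168 and 180 CPM at 1:10000, 122, 147, 154, 149 and 157 CPM at 1:40000 and 151, 178, 193, 182 and 202 CPM in control. The dilutions overlapped, with a log2 fold change of 0.19 ± 0.08 and an edgeR adjusted p of 0.0371, and the adjusted p was 0.135 without 1:40000 replicate 1. Against control at 1:40000, PSMB5, PSMB6 and PSMB7 were lower, by log2 fold changes of -0.22, -0.23 and -0.32. The calls of PSMB5 and PSMB6 were lost without the deepest and shallowest 1:40000 libraries, at adjusted p-values of 0.0547 and 0.0769. PSMB4, a structural beta subunit, had 306, 318, 285, 292 and 288 CPM at 1:10000, 265, 268, 268, 275 and 276 CPM at 1:40000 and 258, 287, 314, 297 and 287 CPM in control. The dilutions did not overlap for PSMB4, by a log2 fold change of 0.14 ± 0.06, and its adjusted p of 0.0317 became 0.0553 without 1:40000 replicate 1.

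Assembly factors moved in different directions. PSMG1 and PSMG2, the heterodimer that starts the alpha ring, were higher at 1:10000 than at 1:40000, and PSMD10, a chaperone of the base also known as gankyrin, was lower. PSMG1 had 76.9, 69.4, 80.8, 70.9 and 77.6 CPM at 1:10000, 49.4, 55.8, 63.9, 57.1 and 59.4 CPM at 1:40000 and 59.3, 49.1, 58.6, 58.7 and 54.1 CPM in control. The 1:10000 group lay above both others, and the log2 fold change was 0.40 ± 0.08 between the dilutions (edgeR adjusted p 9.88e-05). PSMD10 had 41.8, 36.6, 35.6, 40.9 and 31.2 CPM at 1:10000, 44.1, 55.4, 52.7, 51.5 and 48.0 CPM at 1:40000 and 49.9, 47.4, 46.1, 54.7 and 50.8 CPM in control.

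For PSMD10 the 1:10000 group lay below both others without overlap, and the log2 fold change between the dilutions was -0.42 ± 0.09 (edgeR adjusted p 0.000186). The other base chaperones, PSMD5 and PSMD9, had log2 fold changes of -0.09 and -0.14 and did not pass. PSMG3 and PSMG4, the partner heterodimer of the core chaperones, had 0.19 ± 0.10 and -0.18 ± 0.16.

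The activators did not move alike. PSME3 and PSME4, which encode the nuclear activators PA28 gamma and PA200, were higher at 1:10000 than at 1:40000, by log2 fold changes of 0.27 ± 0.07 and 0.21 ± 0.06. PSME1 and PSME2, which form the interferon-inducible activator PA28 alpha-beta, were lower, by -0.17 ± 0.07 and -0.27 ± 0.08. The call of PSME1 was marginal (edgeR adjusted p 0.0464), its dilution ranges overlapped, and it was lost with DESeq2, with RLE scaling, without the deepest and shallowest 1:40000 libraries and in 7 of 10 fits that left out 1 dilution library. PSME2 had 44.1, 38.5, 37.2, 37.4 and 38.8 CPM at 1:10000, 42.2, 43.9, 51.7, 46.2 and 52.6 CPM at 1:40000 and 53.1, 55.9, 52.4, 54.3 and 59.2 CPM in control. One high 1:10000 library made the dilutions overlap for PSME2, while the 1:10000 and control groups did not overlap. PSME3 had 211, 197, 222, 217 and 224 CPM at 1:10000, 152, 158, 197, 187 and 190 CPM at 1:40000 and 200, 207, 225, 225 and 230 CPM in control. The dilution ranges of PSME3 overlapped, and its 1:40000 group lay below control. The inhibitor PSMF1 had a log2 fold change of 0.10 ± 0.06 between the dilutions and did not pass.

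The prefix-only gene PSMC3IP, a cofactor of meiotic recombination, had the largest log2 fold change of the tested members between the dilutions. It stood at 7.80 ± 1.10 CPM at 1:10000 and 4.48 ± 0.967 CPM at 1:40000, with 5.49 ± 0.969 CPM in control (SD, n = 5), a log2 fold change between the dilutions of 0.83 ± 0.17. Its exons share 770 bases with the opposite-strand gene MLX, which averaged 75.7 CPM at 1:10000, 38.7 CPM at 1:40000 and 32.0 CPM in control. The strand setting of the counting is not given in the sources used here, so reads of the pair cannot be told apart.

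Against control, members were more often lower than higher at both dilutions. At 1:10000, 10 of 45 tested members were higher and 15 lower than in control, 55.6% called against 71.0% of all genes, of which 34.8% were higher and 36.2% lower. The 10 became 6 without control replicate 2 and 7 without control replicate 1. At 1:40000, 1 was higher and 27 lower than in control, 62.2% called against 52.1% of all genes, of which 26.1% were higher and 26.0% lower (quasi-likelihood test of edgeR, Benjamini-Hochberg adjusted). The median log2 fold change of the members was -0.04 at 1:10000 and -0.24 at 1:40000, against -0.02 and -0.00 over all tested genes. Groups did not overlap for 5 members above and 13 below control at 1:10000, against 57.8% of all genes (28.8% above and 29.0% below). At 1:40000 they did not overlap for 1 member above and 18 below, against 36.3% of all genes (18.1% above and 18.1% below). Both comparisons share the control libraries, so their values are given side by side. PSMB3 passed the filter through its control counts alone and was bound to differ, and apart from it 0 called members reached 2-fold in either comparison, a size that 23.3% of all genes reached with a call at 1:10000 and 10.3% at 1:40000. Without the deepest and shallowest 1:40000 libraries, 21 members were lower and 2 higher at 1:40000.

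**Figure D3:**
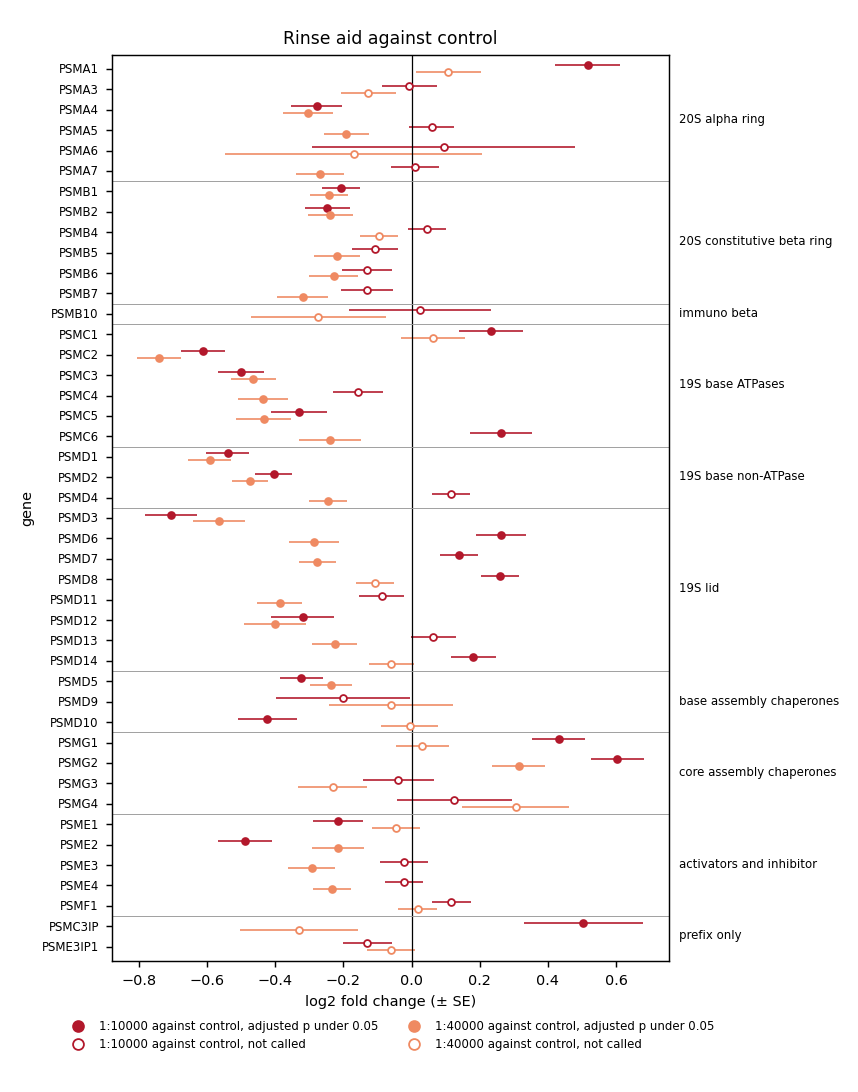
log2 fold change against control (x axis; bars are approximate standard errors) of 44 tested proteasome genes at 1:10000 (dark) and 1:40000 (light), by role, with filled points for an adjusted p under 0.05. PSMC2, PSMC3, PSMC5, PSMD1, PSMD2 and PSMD3 are filled left of 0 at both dilutions, and PSMG2 is filled right of 0 at both.

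By pattern, 12 members were lower than control at both dilutions and not called between them. They were PSMA4, PSMB1, PSMB2, PSMB3, PSMC2, PSMC3, PSMC5, PSMD1, PSMD2, PSMD3, PSMD5 and PSMD12. Of the 12, PSMB3 was bound to differ from control. The share of all genes with each pattern was not counted, so whether these pattern counts are unusual cannot be told. Another 9 members were higher at 1:10000 than at 1:40000, lower at 1:40000 than in control and not called at 1:10000 against control, namely PSMA5, PSMA7, PSMB7, PSMC4, PSMD4, PSMD11, PSMD13, PSME3 and PSME4. PSMC6, PSMD6 and PSMD7 were called higher than control at 1:10000 and lower than control at 1:40000. For PSMD7 the call at 1:10000 (log2 fold change 0.14 ± 0.06, edgeR adjusted p 0.0274) was lost without control replicate 1, at 0.0803, and without control replicate 2, at 0.0738. For PSMC6 the call at 1:10000 (0.26 ± 0.09, edgeR adjusted p 0.013) was at 0.0504 without 1:10000 replicate 1, and the call at 1:40000 was at 0.1 without 1:40000 replicate 1.

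Among the genes lower than control at both dilutions were base genes. PSMC2, an ATPase, had 117, 112, 115, 107 and 121 CPM at 1:10000, 93.7, 105, 112, 106 and 107 CPM at 1:40000 and 156, 164, 182, 189 and 182 CPM in control. Every control library lay above every rinse aid library, by log2 fold changes of -0.61 ± 0.06 at 1:10000 and -0.74 ± 0.06 at 1:40000. PSMD1 had 170, 154, 151, 156 and 176 CPM at 1:10000, 140, 154, 173, 155 and 157 CPM at 1:40000 and 221, 223, 240, 238 and 250 CPM in control. Here too control was apart from both dilutions, by -0.54 ± 0.06 and -0.59 ± 0.06.

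Single genes of the other roles fell alike. PSMD3, a lid subunit, had 130, 116, 134, 135 and 125 CPM at 1:10000, 128, 127, 152, 140 and 159 CPM at 1:40000 and 174, 201, 233, 212 and 225 CPM in control, with log2 fold changes of -0.70 ± 0.08 and -0.56 ± 0.08 against control. PSMA4, an alpha subunit, had 144, 145, 116, 133 and 128 CPM at 1:10000, 108, 137, 141, 136 and 137 CPM at 1:40000 and 149, 168, 163, 162 and 166 CPM in control. PSMD5, a base chaperone, had 88.5, 80.8, 92.6, 86.3 and 86.6 CPM at 1:10000, 82.6, 94.7, 100, 92.0 and 94.4 CPM at 1:40000 and 107, 108, 106, 113 and 109 CPM in control. In all 3 of these genes the control group lay above both rinse aid groups without overlap.

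PSMG2 was the one member called higher than control at both dilutions. This core chaperone had 119, 130, 110, 93.8 and 112 CPM at 1:10000, 90.1, 110, 89.8, 92.0 and 84.8 CPM at 1:40000 and 73.1, 71.4, 77.0, 73.8 and 76.6 CPM in control. Both rinse aid groups lay wholly above control, by log2 fold changes of 0.60 ± 0.08 at 1:10000 and 0.31 ± 0.08 at 1:40000, and it was higher at 1:10000 than at 1:40000 as well, by 0.29 ± 0.08. Its exons overlap those of CEP76 and SPIRE1 on the opposite strand. SPIRE1 averaged 17.2 CPM at 1:10000, 8.25 CPM at 1:40000 and 2.33 CPM in control, and its part in the PSMG2 counts was not tested.

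Summed over genes, the constitutive core without PSMB3 held 1929 ± 71.2 CPM at 1:10000, 1734 ± 119 CPM at 1:40000 and 2016 ± 136 CPM in control (SD, n = 5). The base held 1271 ± 38.6 CPM at 1:10000, 1131 ± 74.5 CPM at 1:40000 and 1544 ± 92.1 CPM in control. The lid held 1266 ± 49.7 CPM at 1:10000, 1048 ± 55.5 CPM at 1:40000 and 1288 ± 96.3 CPM in control. The ratio of 1:10000 to 1:40000 was 1.11 for the core, 1.12 for the base and 1.21 for the lid, while the ratio of 1:10000 to control was 0.957, 0.823 and 0.982.

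PSMB3, a structural beta subunit of every 20S core (ENSG00000277791, chromosome 17 from 38752736 to 38764231, forward strand), had 0 counts in all 10 rinse aid libraries. In control it had 6322 counts over 5 libraries, from 643 to 2380 per library, and 147 ± 12.5 CPM (SD, n = 5). Against a floor of 3 counts over a group it was at least 1718-fold lower at 1:10000 and at least 11138-fold lower at 1:40000 than in control. The floor covers counting error only. GENCODE 29 places 6 further transcripts of PSMB3 on sequences outside the primary assembly.

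Counts of the inducible cutting subunits were low in every group. PSMB8 (chromosome 6 from 32840717 to 32844703) had 0 counts in both rinse aid groups and 49 counts in control, and PSMB9 (chromosome 6 from 32844136 to 32859585) had 0 counts in both and 9 in control. PSMB8 was thus at least 13.3-fold lower at 1:10000 and at least 86.3-fold lower at 1:40000 than in control, and PSMB9 at least 2.45-fold and 15.9-fold lower. GENCODE 29 has 35 and 42 transcripts of PSMB8 and PSMB9 outside the primary assembly. It also has 1 such transcript of PSMB1, 6 of PSMC4, 10 of PSME1 and 18 of PSME2, and the rinse aid counts of these genes were not near 0. The part of such transcripts in the counts was not tested. For the 3 genes at 0, exposure, aligner and annotation cannot be told apart.

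PSMB10, the inducible partner of PSMB7, was counted in every library. It had 5.50, 5.29, 3.91, 4.12 and 4.19 CPM at 1:10000, 3.27, 1.53, 4.26, 4.33 and 4.20 CPM at 1:40000 and 3.00, 5.38, 3.99, 4.28 and 5.43 CPM in control. The 3 groups overlapped, and the log2 fold change between the dilutions was 0.30 ± 0.20 (edgeR adjusted p 0.212). Per kb of exon PSMB10 stood at 2.68% of PSMB7 at 1:10000, 2.32% at 1:40000 and 2.35% in control. Exons of PSMB10 share 644 bases with AC040162.1 on the same strand. How reads on shared bases were counted is not given, and the part of this overlap in the PSMB10 level was not tested. PSMB8 in control stood at 0.417% of PSMB5 and PSMB9 at 0.112% of PSMB6, also per kb. The thymus subunit PSMB11 had 1 count in all, and the testis alpha subunit PSMA8 had 0 counts in every library.

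**Figure D4:**
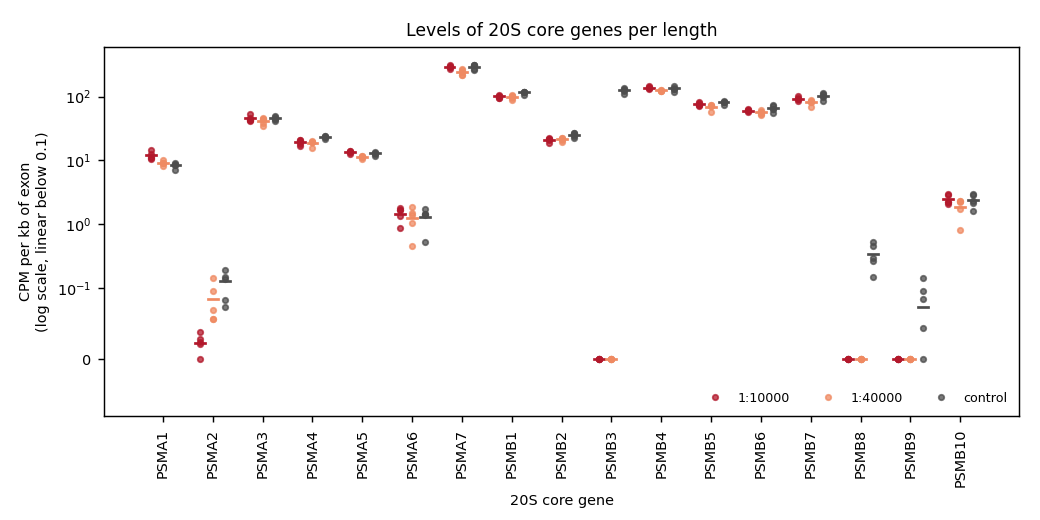
Level of 20S core genes in CPM per kb of exon (y axis, logarithmic above 0.1 and linear below) for each library, with 1:10000, 1:40000 and control from left to right for each gene and a line at the mean of 5 libraries. PSMB3, PSMB8 and PSMB9 sit at 0 in both rinse aid groups, and PSMA7 is the highest gene in all 3 groups.

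Among core genes, levels per kb of exon covered a wide range. PSMA7, an alpha subunit, was highest, at 293 CPM per kb at 1:10000, 242 at 1:40000 and 291 in control. PSMB4 was the highest beta gene, at 138, 125 and 134 CPM per kb in the same groups. PSMA2 was counted at only 0.120 ± 0.0750 CPM at 1:10000, 0.450 ± 0.196 CPM at 1:40000 and 0.683 ± 0.266 CPM in control, and PSMA6 at 9.51 ± 2.43, 8.18 ± 3.43 and 8.55 ± 2.99 CPM (SD, n = 5), although both encode subunits of every core. In GENCODE 29 exons of PSMA2 share 781 bases with AC010132.3 on the same strand, and those of PSMA6 share 919 with AL121594.1. The overlapping genes averaged at most 0.0224 CPM in any group. How reads on shared bases were counted is not given, and the part of the overlaps in the low counts of PSMA2 and PSMA6 was not tested.

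Pseudogenes named after members were counted differently in the 2 kinds of file. The 44 pseudogenes together held 24.7 ± 4.15 CPM at 1:10000 and 21.0 ± 1.46 CPM at 1:40000, against 2.28 ± 0.615 CPM in control (SD, n = 5). The pseudogenes of PSMA6 held 8.57 CPM at 1:10000, 7.09 CPM at 1:40000 and 0.0530 CPM in control, close to the level of PSMA6 itself in the rinse aid libraries. Those of PSMD7 held 6.58, 5.48 and 0.0136 CPM in the same groups. Those of PSMC2 held 1.86 to 3.86 CPM at 1:10000, 1.91 to 3.28 CPM at 1:40000 and 0 to 0.0680 CPM in control, small beside PSMC2. Tested members without a pseudogene named after them, exon overlap, transcript outside the primary assembly or changed version numbered 12. Pseudogenes under other names were not counted. Of these 12, 4 were higher and 0 lower between the dilutions, against 28.3% and 29.0% of all genes. In the same 12 genes, 2 were higher and 6 lower at 1:10000 than in control, against 34.8% and 36.2% of all genes. At 1:40000, 0 of the 12 were higher and 10 lower than in control, against 26.1% and 26.0% of all genes.

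Of 32 genes of ubiquitin supply, proteasome control and substrate delivery, 21 were higher and 3 lower at 1:10000 than at 1:40000, 75% called against 57.3% of all genes. Against control 19 were higher and 10 lower at 1:10000, and 6 were higher and 10 lower at 1:40000, 90.6% and 50% called against 71.0% and 52.1% of all genes. BAG6, a chaperone chosen here after its values were seen, averaged 0.102 CPM at 1:10000, 0.150 CPM at 1:40000 and 226 CPM in control, and so passed the filter through control alone. The medians of the log2 fold changes were 0.24 between the dilutions, 0.24 at 1:10000 and 0.00 at 1:40000 against control. NFE2L1 had 705, 743, 704, 709 and 700 CPM at 1:10000, 708, 620, 572, 607 and 634 CPM at 1:40000 and 406, 459, 430, 427 and 415 CPM in control. Both rinse aid groups lay above control, by 0.73 ± 0.06 and 0.56 ± 0.06. The dilution ranges of NFE2L1 overlapped, and it was called higher at 1:10000 than at 1:40000, by 0.18 ± 0.06 (edgeR adjusted p 0.00878). Without the low count filter this call was lost, at an edgeR adjusted p of 0.247.

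NFE2L2, which encodes NRF2, the regulator of the antioxidant response, had 311, 263, 241, 244 and 225 CPM at 1:10000, 127, 119, 104, 110 and 103 CPM at 1:40000 and 120, 112, 107, 114 and 108 CPM in control. Only the 1:10000 group of NFE2L2 stood apart, by a log2 fold change of 1.19 ± 0.08 against 1:40000 (edgeR adjusted p 4.26e-12). SQSTM1, a receptor that carries ubiquitinated cargo to autophagy, was likewise highest at 1:10000, with 562 ± 19.8 CPM at 1:10000, 277 ± 31.8 CPM at 1:40000 and 288 ± 15.8 CPM in control (SD, n = 5). DDI2, the protease that releases active NRF1, was lowest at 1:10000, with 51.6, 46.4, 63.2, 67.0 and 65.7 CPM at 1:10000, 77.5, 77.9, 100, 97.2 and 93.7 CPM at 1:40000 and 157, 155, 142, 156 and 157 CPM in control. For DDI2 the 3 groups did not overlap. UBA1, the main ubiquitin-activating enzyme, stood at 208 ± 9.24, 270 ± 14.0 and 322 ± 4.41 CPM in the same order of groups.

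**Figure D5:**
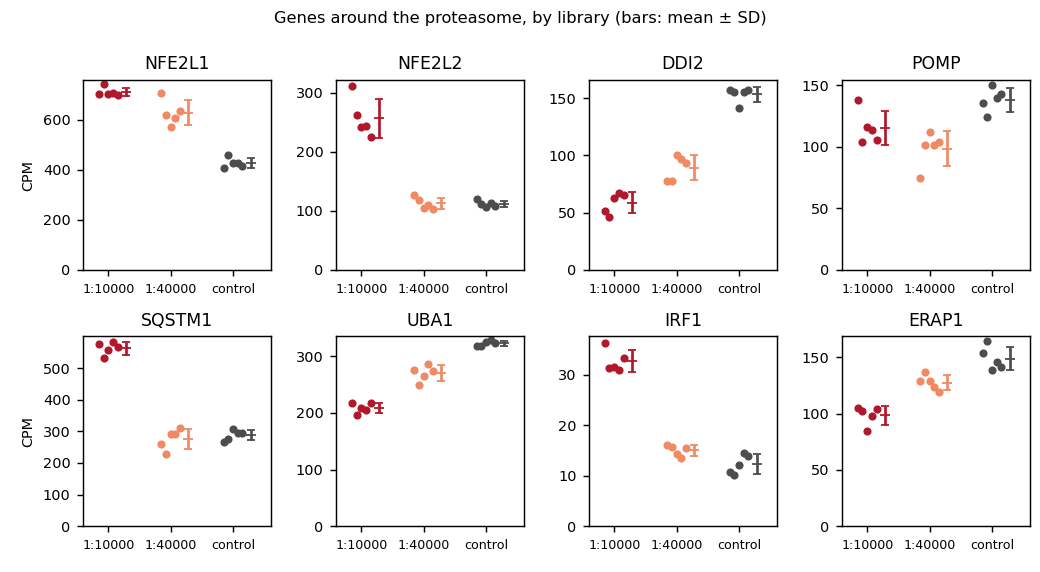
Level in CPM (y axis) of 8 genes that supply, regulate or use the proteasome in each library, with 1:10000, 1:40000 and control from left to right and bars for the mean ± SD of 5 libraries. NFE2L2, SQSTM1 and IRF1 are highest at 1:10000, NFE2L1 is above control at both dilutions, and DDI2, UBA1 and ERAP1 are lowest at 1:10000.

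POMP, the chaperone that completes the core, had 138, 104, 116, 114 and 105 CPM at 1:10000, 74.4, 101, 112, 101 and 104 CPM at 1:40000 and 135, 124, 150, 139 and 143 CPM in control. The dilutions overlapped, with a log2 fold change of 0.24 ± 0.10 (edgeR adjusted p 0.0395) that reached 0.128 without 1:40000 replicate 1. Among the subunits whose symbols lie outside the rule, chosen after their values were seen, ADRM1, a ubiquitin receptor of the base, averaged 299 CPM at 1:10000, 196 CPM at 1:40000 and 257 CPM in control. SEM1, a small lid subunit, averaged 67.7, 75.6 and 106 CPM in these groups.

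Of 14 genes that feed peptides to, or switch on, antigen presentation, 12 were tested. Between the dilutions 5 were higher and 1 lower at 1:10000, 50% called against 57.3% of all genes. Of the 5, HLA-E, a presenting molecule chosen here after its values were seen, had 7.45 CPM in 1:10000 replicate 5 and 0 to 0.153 CPM in the other 9 rinse aid libraries. Against control 3 were higher and 8 lower at 1:10000, and 2 were higher and 8 lower at 1:40000, 91.7% and 83.3% called against 71.0% and 52.1% of all genes. IRF1, a transcription factor that switches on immunoproteasome genes, had 36.3, 31.3, 31.5, 31.0 and 33.2 CPM at 1:10000, 16.1, 15.7, 14.3, 13.5 and 15.5 CPM at 1:40000 and 10.8, 10.2, 12.2, 14.5 and 14.0 CPM in control. The 1:10000 group was apart from both others, by a log2 fold change of 1.12 ± 0.10 against 1:40000. ERAP1, which trims peptides after the proteasome, averaged 98.6 ± 8.47 CPM at 1:10000, 127 ± 6.67 CPM at 1:40000 and 149 ± 10.5 CPM in control (SD, n = 5). Several genes of this list lie in the same chromosome 6 region as PSMB8 and PSMB9, and TAP1, a peptide transporter, had 0 counts in both rinse aid groups against 1.61 ± 0.320 CPM in control.

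Promoters were searched for TGACNNNGC, the core of the antioxidant response element to which the products of NFE2L1 and NFE2L2 bind as dimers with small MAF proteins. RefSeq promoters (GRCh38.p14, 250 bases before to 50 after the start, both strands) were at hand for 44 of the 50 members, some with several starts. TGACNNNGC, called the motif below, lay in a promoter of 15 of the 44 members (34.1%), against 17.9% of 15843 protein-coding genes. Other patterns were also searched, and their excess over all genes was smaller. TGAGNNNGC, with G in place of C, lay in 13 of the 44 (29.5%), against 24.3% of all genes. Either of these patterns lay in 22 of the 44, against 37.3% of all genes. CCAAT also lay in 22 of the 44, against 42.1%. Shares by call are given for TGACNNNGC only. At 1:10000 against control, counting members with a promoter, TGACNNNGC lay in 9 of 14 called lower, 2 of 10 called higher and 3 of 15 not called. At 1:40000 against control it lay in 10 of 22, 1 of 1 and 3 of 16 in the same order. In both comparisons the lower members with the motif include PSMB3, which was bound to differ from control. Between the dilutions TGACNNNGC lay in 2 of 3 lower, 4 of 16 higher and 8 of 20 not called. Differences between these shares were not tested. The windows below show 7 of the 15 members, picked because they did not move alike, so they do not reflect these shares. The motif is in capitals, and each window is written 5′ to 3′ on the gene's strand.
PSMA4: gtgggcacgaTGACTCTGCaccgcctcct
PSMD3: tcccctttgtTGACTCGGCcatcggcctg
PSMD12: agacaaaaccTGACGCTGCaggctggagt
PSMG1: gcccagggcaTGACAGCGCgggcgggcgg
PSMG2: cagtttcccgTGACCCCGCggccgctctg
PSME1: atggcagggcTGACCCCGCctcctccatc
PSME2: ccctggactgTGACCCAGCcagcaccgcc

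These windows lie at chr15:78540650-78540678 (PSMA4, forward), chr17:39980760-39980788 (PSMD3, forward), chr17:67366724-67366752 (PSMD12, reverse), chr21:39183616-39183644 (PSMG1, reverse), chr18:12658689-12658717 (PSMG2, forward), chr14:24136098-24136126 (PSME1, forward) and chr14:24146767-24146795 (PSME2, reverse). The motif began 126 bases before the start in PSMA4, 37 in PSMD3, 165 in PSMD12, 183 in PSMG1, 39 in PSMG2, 86 in PSME1 and 175 in PSME2. PSMA4, PSMD3 and PSMD12 were lower than control at both dilutions, PSMG1 and PSMG2 were higher at 1:10000 than in either other group, PSME2 was lower at 1:10000 than in either other group, and PSME1 was lower at 1:10000 than in control. A match describes the letters in the window and is not a measured binding site.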

How the data were processed

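The authors deposited 1 file of raw counts per library, reads per Ensembl gene with no normalization. Per the submitters' processing notes, GRCh38 was the build, and the tools were DESeq2 1.32.0, featureCounts, STAR 2.7.9a and cutadapt, with no roles given. Per the file headers, the 10 rinse aid files come from HISAT2 and the 5 control files from RNA STAR. Files were joined by Ensembl identifier without version. GENCODE 29 on GRCh38 gave coordinates, exon lengths, overlaps and pseudogenes, and RefSeq gave promoters. In R 4.3.3, edgeR 4.0.16 was fitted to all 15 libraries with a mean per group (TMM scaling, filterByExpr by group, robust quasi-likelihood test), with Benjamini-Hochberg adjustment over the 13157 tested genes within each comparison. The standard error is the absolute log2 fold change over the square root of F, and is approximate. The steps were tested on simulated data. Precision is limited by totals of 2551839 to 172092447 counts.

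The genes and lists were chosen with earlier results of these data known. Named in full were the cutting subunits, PSMB3 and, per role and comparison, the called member with the smallest adjusted p in each direction. From the 2 other lists the rule took the 2 called genes with the smallest adjusted p per direction between the dilutions, plus NFE2L1 and POMP. Other genes given with values were chosen after their values were seen. A gene that the rule names is not reported here. Alternatives were DESeq2 1.42.0, upper-quartile and RLE scaling, other filters, a replicate block, unchanged identifier versions, 2-group fits and leaving out libraries. Libraries were treated as unpaired. No pair of libraries in a group differed by less than sampling noise.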

Additional observations from a re-analysis of the deposited data

Results flagged for a closer look

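In 9 of 93 groups of 5 libraries, over 33 named genes, 1 library stood far from the other 4 relative to the range of its group. Chance flags about 1 in 20 groups. Replicate 1 at 1:40000, the deepest library, was lowest in its group for PSMA4 (108 CPM), PSMC6 (78.8 CPM) and POMP (74.4 CPM). Replicate 2 at 1:40000, the shallowest library, was lowest for PSMB5 (101 CPM) and highest for PSMG2 (110 CPM). At 1:10000, replicate 1 was highest for PSME2 (44.1 CPM) and replicate 2 for NFE2L1 (743 CPM). In control, replicate 1 was lowest for PSMB5 (128 CPM) and replicate 3 for DDI2 (142 CPM). The part of depth in these values was not tested.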

How the results depend on the processing

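Of 93 single-gene results, 72 kept their direction and their side of the threshold under every alternative run, and 0 reversed. Leaving out 1 library at a time, 20 to 22 members were called between the dilutions, 22 to 26 at 1:10000 against control and 24 to 30 at 1:40000 against control. Over the same settings, 6 to 11 members were higher at 1:10000 than in control, the lowest without control replicate 2, and 1 to 2 were higher at 1:40000, with 2 without control replicate 3. Without the deepest and shallowest 1:40000 libraries 2 members were higher than control there. With genes of unchanged identifier version only, 7 antigen processing genes were tested in place of 12. Of the 7, 6 were called at 1:10000 and 5 at 1:40000 against control, in place of 11 and 10 of 12. Another count took the 12 tested members without overlap, pseudogene named after them, other copy or changed version, chosen after seeing the data. Between the dilutions 4 of the 12 were called (4 higher, 0 lower), beside 22 of 45 members and 57.3% of all genes. At 1:10000 against control 8 of the 12 were called (2 higher, 6 lower), beside 25 of 45 and 71.0%. At 1:40000 against control 10 of the 12 were called (0 higher, 10 lower), beside 28 of 45 and 52.1%. The share called was thus smaller than over the 45 between the dilutions and larger in both comparisons with control. The labels give same-numbered libraries no shared batch, and their deviations from the group means correlated from -0.0503 to 0.281, over 0.1 in 6 of 15 same-number pairs and in 9 of 60 other pairs, with 8 of 15 libraries closest to one of their own number. With the replicate block 22, 26 and 27 members were called in these comparisons, and 8012, 9592 and 7314 of all genes against 7542, 9343 and 6858 without it. Without a low count filter 18, 27 and 20 members were called, the median of all genes moved to -0.21 between the dilutions and 0.16 at 1:40000 against control, and that of the members to 0.06 and -0.16. DESeq2 called 21, 29 and 28, and moved the median of all genes to 0.12 between the dilutions. PSMA2, PSMA8, PSMB8, PSMB9 and PSMB11 did not pass the low count filter. DESeq2 and the fit without that filter called PSMA2 at 1:10000 and PSMB8 at both dilutions against control.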
